A study of Homo sapiens with 10 samples.

Results

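The 35 genes described here are HOX cluster genes, chosen by symbol alone: all 39 genes of the count table named HOXA, HOXB, HOXC or HOXD with a paralogue number, less 4 that stayed at 3 or fewer UMIs (unique molecular identifiers, 1 per captured RNA molecule) in every sum of cells. The whole table holds 19893 genes. Left out were HOXB1 and HOXD12 with no UMI, HOXC12 with at most 1 and HOXB5 with at most 2 in any sum. The 35 comprised 11 HOXA genes, 8 HOXB genes, 8 HOXC genes and 8 HOXD genes. They were measured by droplet single-cell RNA-seq of the 3′ ends of transcripts in Kuramochi, an established cell line from a high-grade serous carcinoma of the ovary that carries a BRCA2 mutation. All groups are of this 1 line: control cells that had never met the drug, persister cells that survived 9 days in 10 µM or in 320 µM olaparib (a PARP inhibitor, used against tumours that repair DNA breaks poorly), and adapted cells that grow at 10 µM or at 320 µM. The 10 GEO samples are 8 expression libraries and 2 hashtag libraries of 2 mixed pools. Cells of all 5 conditions are in both pools, so condition and pool were read from the deposited cell names. Counts were added up per condition and pool, giving 10 sums and n = 2 per condition.

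HOX genes encode homeodomain transcription factors that give cells their position along the head-to-tail axis of the embryo. They lie in 4 clusters, and within a cluster the genes are ordered by paralogue number, with low numbers (anterior genes) used nearer the head and high numbers (posterior genes) nearer the tail. Polycomb proteins keep unused HOX genes silent, Trithorax proteins keep used ones active, retinoic acid switches on anterior genes first, and many HOX proteins bind DNA with PBX and MEIS partners. In the female reproductive tract HOXA9, HOXA10, HOXA11 and HOXA13 mark the fallopian tube, the uterus, the cervix and the upper vagina in that order, and serous ovarian cancers often express several of these genes.

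The sums held 3532281 to 23189583 UMIs from 263 to 2435 cells each, so that 1 UMI weighs most in the 10 µM persister sums, the smallest. The pools share 13 cell barcodes. Whether the 2 pools were grown as separate cultures, and how many adapted populations were derived at each dose, is not given in the sources used here, so a p-value reflects pool-to-pool spread that may be technical only. An exact permutation test of 2 sums against 2 cannot go below 0.333, and tests therefore came from a model fitted to 13330 genes at once. PAX8, the lineage factor of serous carcinoma, ranged from 63.4 to 165.8 CPM (counts scaled to library size) in condition means, and the epithelial marker CDH1 was at 1.84 CPM or less in every condition mean. The summed level of 8 fibroblast markers was 48.8 and 48.9 CPM in control with COL1A2 and LUM at 0 UMIs, 35.5 to 41.3 CPM in persister sums, 320.2 and 309.2 CPM in 10 µM adapted sums and 130.2 and 123.9 CPM in 320 µM adapted sums. Of the 7 fibroblast markers tested, all 7 were higher than control in 10 µM adapted cells (adjusted p under 0.05 in this model). In 320 µM adapted cells 2 were higher and 1 lower, and PDGFRB had no UMI. The 320 µM fibroblast sum therefore does not stand for each marker. Of all genes 33.7% were higher at 10 µM, and 37.6% were higher and 36.9% lower at 320 µM. Of 8 serous lineage markers the sum was 614 and 668 CPM in control, 202.0 and 213.2 CPM in 10 µM adapted and 75.3 and 77.2 CPM in 320 µM adapted sums. In persister sums it was 346.5 and 317.5 CPM at 10 µM and 444.3 and 481 CPM at 320 µM. The sum of 8 epithelial markers was 4072 and 4177 CPM in control, 2417 to 3497 CPM in persister sums, 2507 and 2442 CPM in 10 µM adapted and 1306 and 1175 CPM in 320 µM adapted sums. This sum follows the most abundant markers and not each one. The median log2 change of the 8 from control was 1.57 in 10 µM and -0.83 in 320 µM persister cells. In adapted cells it was -0.02 at 10 µM and -1.80 at 320 µM. The sum of 6 mesothelial markers was 133.7 and 127.8 CPM in control, 177.6 and 185.2 in 10 µM persister, 101.1 and 105.2 in 320 µM persister, 37.1 and 35.5 in 10 µM adapted and 3.82 and 3.95 in 320 µM adapted sums. That of 9 leukocyte markers was 1.24 and 1.15 CPM in control, 22.7 and 21.4 in 10 µM persister, 4.70 and 3.49 in 320 µM persister, 7.70 and 8.76 in 10 µM adapted and 18.2 and 19.4 in 320 µM adapted sums, with CD3E, CD3D and MS4A1 at 0 UMIs throughout. In every sum 4 endothelial markers came to 6.73 CPM or less. The part of these markers in the HOX differences was not tested.

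Sequence before the start of transcription was printed for members whose levels went in different directions in adapted cells: HOXA4 and HOXA13, which were higher in 320 µM adapted cells than in control, and HOXA9 and HOXD8, which were lower. The windows are from RefSeq on GRCh38.p14, read 5′ to 3′ on the gene's own strand, and hold up to 250 bases before the start, less any base in a GENCODE exon of the gene. Capitals mark CG pairs, the letters that DNA methylation acts on. HOXA4 is chr7:27130800-27131007 on the minus strand, HOXA9 chr7:27165538-27165787 (minus), HOXA13 chr7:27200107-27200341 (minus) and HOXD8 chr2:176129455-176129693 (plus).
HOXA4: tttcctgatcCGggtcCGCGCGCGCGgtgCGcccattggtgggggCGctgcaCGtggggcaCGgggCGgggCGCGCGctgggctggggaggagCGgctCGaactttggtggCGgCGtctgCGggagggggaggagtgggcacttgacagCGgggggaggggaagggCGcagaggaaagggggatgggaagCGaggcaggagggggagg
HOXA9: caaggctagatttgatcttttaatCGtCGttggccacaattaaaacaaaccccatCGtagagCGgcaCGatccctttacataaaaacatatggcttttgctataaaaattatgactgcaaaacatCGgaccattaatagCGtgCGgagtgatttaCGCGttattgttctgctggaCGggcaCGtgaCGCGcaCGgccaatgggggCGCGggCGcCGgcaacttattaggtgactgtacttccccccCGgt
HOXA13: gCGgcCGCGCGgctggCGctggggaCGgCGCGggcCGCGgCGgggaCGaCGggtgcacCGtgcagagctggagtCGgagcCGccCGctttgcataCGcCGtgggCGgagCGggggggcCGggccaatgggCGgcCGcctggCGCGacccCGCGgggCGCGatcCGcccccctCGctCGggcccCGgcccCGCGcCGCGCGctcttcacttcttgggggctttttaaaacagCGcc
HOXD8: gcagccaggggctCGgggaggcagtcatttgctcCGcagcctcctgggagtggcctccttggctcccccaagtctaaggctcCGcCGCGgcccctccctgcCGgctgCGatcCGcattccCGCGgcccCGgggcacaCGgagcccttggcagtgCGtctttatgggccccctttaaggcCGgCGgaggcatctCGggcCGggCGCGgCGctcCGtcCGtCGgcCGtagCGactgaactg
The HOXA13 window held 40 CG pairs, against 22 for HOXA4, 20 for HOXA9 and 25 for HOXD8. RefSeq windows were matched for 18 of the 35 members (25 windows, since some genes have several starts), with a median of 20 CG pairs against 11 in all 35116 windows of 250 bases. The letters TATAAA, searched on both strands, occurred in the HOXA9 window, in 5 of the 25 HOX windows and in 10.7% of all windows. TGATNNAT, the form of site that PBX and HOX proteins bind together, occurred in none of those printed, in 2 of the 25 and in 6.47% of all windows. These are matches of letters, not measured sites.

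In control cells the HOXD cluster (chr2:176092891-176190907, GRCh38) gave 47.4% and 49.4% of all HOX counts in CPM. Its summed level was 101.1 ± 8.78 CPM (SD, n = 2) in control, 39.7 ± 3.64 in 10 µM persister cells and 60.9 ± 5.89 in 320 µM persister cells. In adapted cells it was 19.6 ± 1.38 CPM at 10 µM and 9.50 ± 1.75 CPM at 320 µM, or 8.41% to 10.8% of HOX counts. The HOXC cluster (chr12:53938765-54056030) went the other way, from 7.89 ± 0.594 CPM in control to 43.5 ± 0.380 CPM in 10 µM adapted and 16.4 ± 0.0279 CPM in 320 µM adapted cells, with 9.47 ± 0.826 and 6.87 ± 0.823 CPM in the persister cells of those doses. The HOXB cluster (chr17:48540894-48729178) was at 60.8 ± 1.79 CPM in control, 69.9 ± 4.73 and 45.5 ± 4.42 CPM in persister cells and 110.8 ± 0.176 and 43.0 ± 2.39 CPM in adapted cells. For the HOXA cluster the sums were 38.9 ± 0.723 CPM in control, 49.1 ± 13.7 and 27.5 ± 1.82 CPM in persister cells and 49.8 ± 0.597 and 28.96 ± 1.72 CPM in adapted cells, a small range that hides opposite movements of its members. The HOX share of each sum counts 3′ UMIs, which are not divided by gene length.

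**Figure D1:**
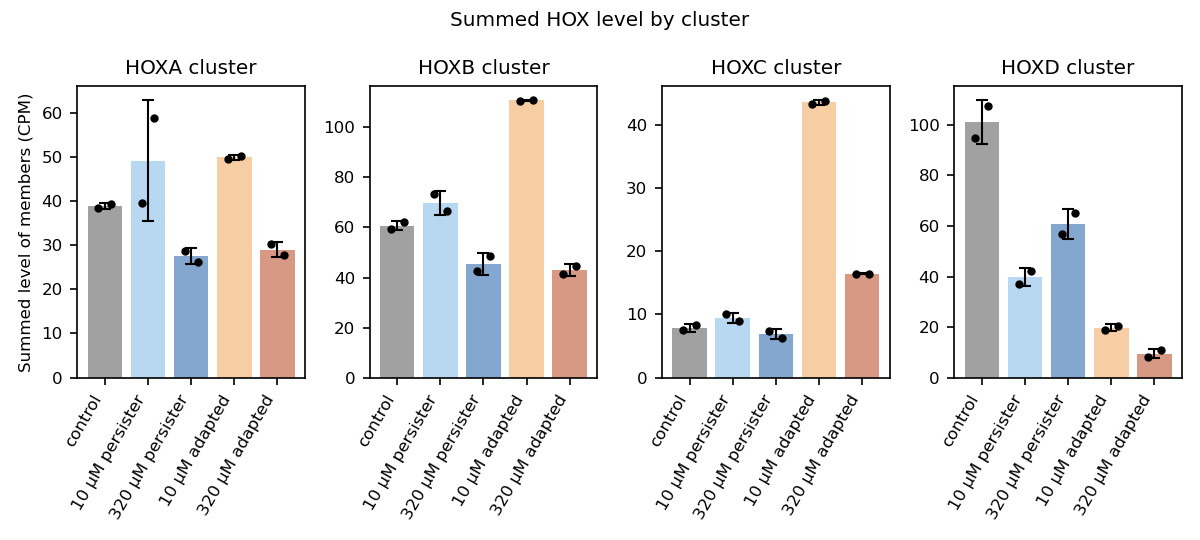
Summed level of the members of each HOX cluster in CPM (vertical axis) in the 5 conditions. Bars are means of 2 sums, error bars are SD and points are the sums of pool 1 and pool 2; HOXD falls from 101.1 CPM in control to 9.50 CPM in 320 µM adapted cells while HOXC is highest, at 43.5 CPM, in 10 µM adapted cells.

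Of the 35 members 31 passed the filter on low counts and were tested (11 HOXA, 7 HOXB, 8 HOXC and 5 HOXD genes). HOXB8, HOXD10, HOXD11 and HOXD13 did not. Changes are log2 ratios from edgeR's quasi-likelihood test with Benjamini-Hochberg adjustment over all 13330 genes, and a member is called where the adjusted p is under 0.05. A member that passed the filter only through the condition where it is high had to differ, so counts are also given for the 17 members that reached the filter's 0.628 CPM in both control sums. In 10 µM persister cells 6 of 31 members were higher than in control and 5 lower, where 27.3% of all genes were called higher and 29.3% lower. In 320 µM persister cells no member was called higher and 10 were lower, against 26.3% and 28.3% of all genes. In 10 µM adapted cells 22 were higher and 6 lower, against 33.7% and 33.4%. In 320 µM adapted cells 12 were higher and 13 lower, against 37.6% and 36.9%. Among the 17 members present in control, those counts were 2 higher and 5 lower, 0 and 9, 9 and 6, and 1 and 12 in the same order. All 4 comparisons share the control sums. The median change of the 31 was 0.11, -0.36, 1.32 and 0.10 on the log2 scale, beside -0.026, -0.013, 0.0048 and 0.0092 over all genes. With changes against 0 UMIs set to their bound the second was -0.26. When every sum was thinned at random to the smallest total (called thinned sums from here on), 20 members could be tested, 6 were called lower in 320 µM persister cells, 13 higher in 10 µM adapted cells and 4 higher in 320 µM adapted cells. Of the 11570 genes tested in thinned sums 20.8%, 24.7% and 28.4% were called the same way. In 10 µM persister cells the count of higher members was 2 without the control sum of pool 1 and 2 without either 10 µM persister sum. Those fits called 24.5%, 23.5% (without pool 1) and 22.4% (without pool 2) of all genes higher. Only 1 was called higher there, beside 26.4% of all genes, among listed cells, the 7762 of 13800 cells on a list that the authors deposited without a stated criterion. In 10 µM adapted cells the list left out most cells of the cycling clusters described below.

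**Figure D2:**
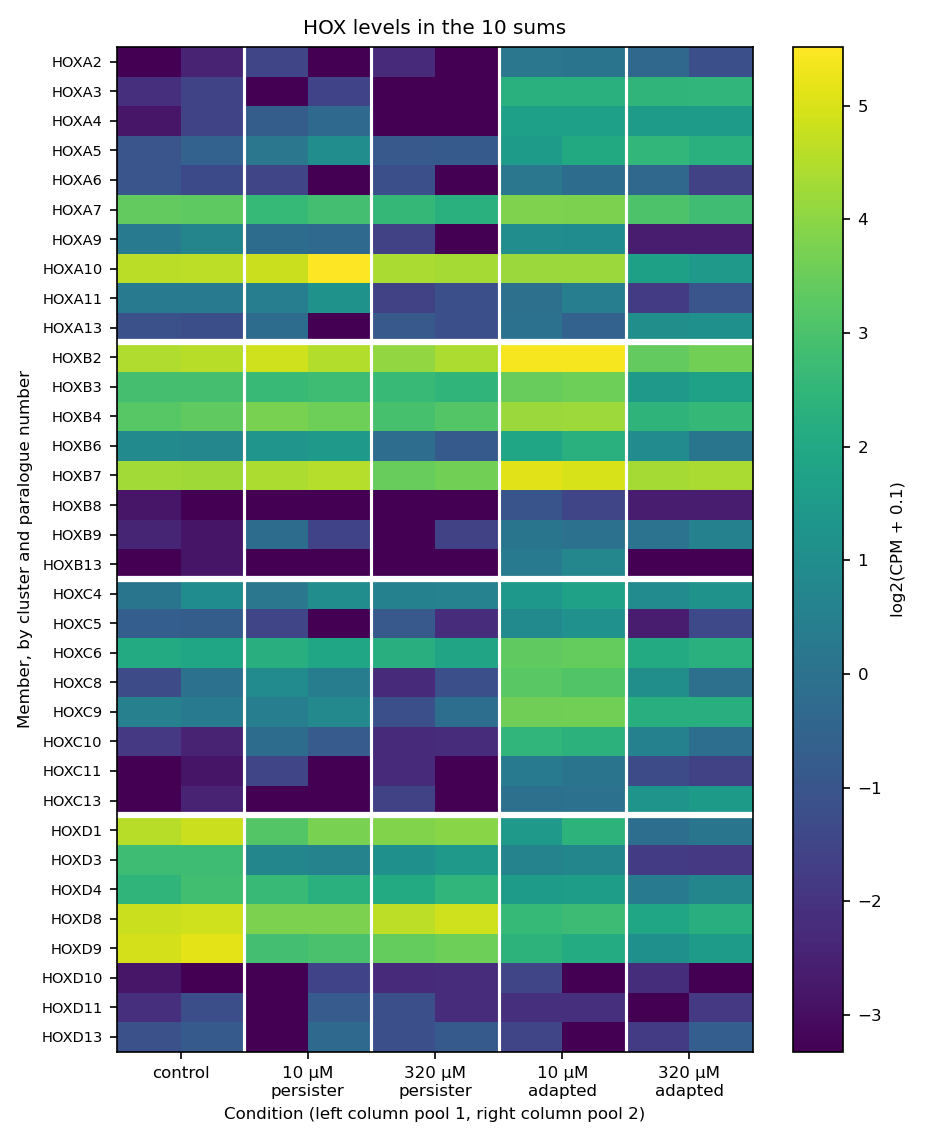
Level of 34 of the members (rows, by cluster and paralogue number) in the 10 sums (columns, pool 1 left and pool 2 right in each condition) as log2(CPM + 0.1). Rows HOXD1 to HOXD9 darken from control to adapted cells and rows HOXC8 to HOXC13 brighten in adapted cells.

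In adapted cells all 5 tested HOXD genes were lower than in control, where 33.4% of all genes were called lower at 10 µM and 36.9% at 320 µM. HOXD9, a posterior gene used in limb and genital development, had 30.9 and 35.2 CPM in control, 7.22 and 7.69 in 10 µM persister and 10.7 and 11.6 in 320 µM persister sums. Adapted sums held 5.16 and 4.25 CPM at 10 µM and 2.07 and 2.79 at 320 µM. Every treated sum lay below both control sums. It fell by 2.15 ± 0.16 (SE, log2, adjusted p 1.46e-12) in 10 µM persister and by 1.57 ± 0.12 (adjusted p 1.61e-12) in 320 µM persister cells. Adapted cells at 320 µM were lower than control by a log2 change of -3.76 ± 0.13 (adjusted p 1.2e-20). HOXD8, its neighbour in the middle of the cluster, had 28.0 and 29.3 CPM in control, 13.4 and 13.7 in 10 µM persister and 24.9 and 29.1 in 320 µM persister sums. In adapted sums it stood at 5.94 and 6.57 CPM at 10 µM and 3.69 and 4.53 at 320 µM. The 320 µM persister sums overlapped control (log2 change -0.09 ± 0.09, adjusted p 0.452), while those of the 10 µM persister cells did not (-1.08 ± 0.14, adjusted p 5.97e-08). Adapted cells differed from control by -2.19 ± 0.11 at 10 µM (adjusted p 1.01e-16) and -2.79 ± 0.12 at 320 µM (adjusted p 6.19e-19).

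HOXD1, the most anterior gene of the cluster, had 23.4 and 28.2 CPM in control and 8.77 and 13.2, 14.2 and 15.4, 2.68 and 5.09, and 0.814 and 0.987 CPM in 10 µM persister, 320 µM persister, 10 µM adapted and 320 µM adapted sums. All 8 treated sums were below control, and the log2 changes were -1.22 ± 0.23, -0.80 ± 0.17, -2.73 ± 0.19 and -4.82 ± 0.25 in that order (adjusted p 0.000449, 0.00128, 2.81e-08 and 7.98e-10). HOXD3, an anterior gene linked to cell adhesion, had 6.72 and 6.66 CPM in control, 1.55 and 1.44 in 10 µM persister, 2.06 and 2.68 in 320 µM persister, 1.44 and 1.55 in 10 µM adapted and 0.188 and 0.174 in 320 µM adapted sums. Its loss was deepest at 320 µM in adapted cells (-5.14 ± 0.31, adjusted p 3.18e-15), from 309 UMIs in control to 6. With thinned sums that change was -3.53 and still called. HOXD4, next to HOXD3 and sharing exon bases with the same overlapping locus, had 5.35 and 7.12 CPM in control, 6.19 and 4.80 and 4.13 and 5.59 in persister sums, and 2.81 and 3.03 and 1.19 and 1.57 in adapted sums. Persister sums overlapped control, and adapted sums did not (-1.10 ± 0.19 at 10 µM, adjusted p 1.07e-05, and -2.17 ± 0.22 at 320 µM, adjusted p 5.46e-10). So 4 of the 5 tested HOXD genes were lower in 10 µM persister cells, 3 in 320 µM persister cells, and 5 in each adapted population. Of all genes 29.3% were called lower in 10 µM persister and 28.3% in 320 µM persister cells. In adapted cells 33.4% were at 10 µM and 36.9% at 320 µM. The untested posterior genes HOXD10, HOXD11 and HOXD13 had 0 to 4, 0 to 8 and 0 to 11 UMIs per sum.

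**Figure D3:**
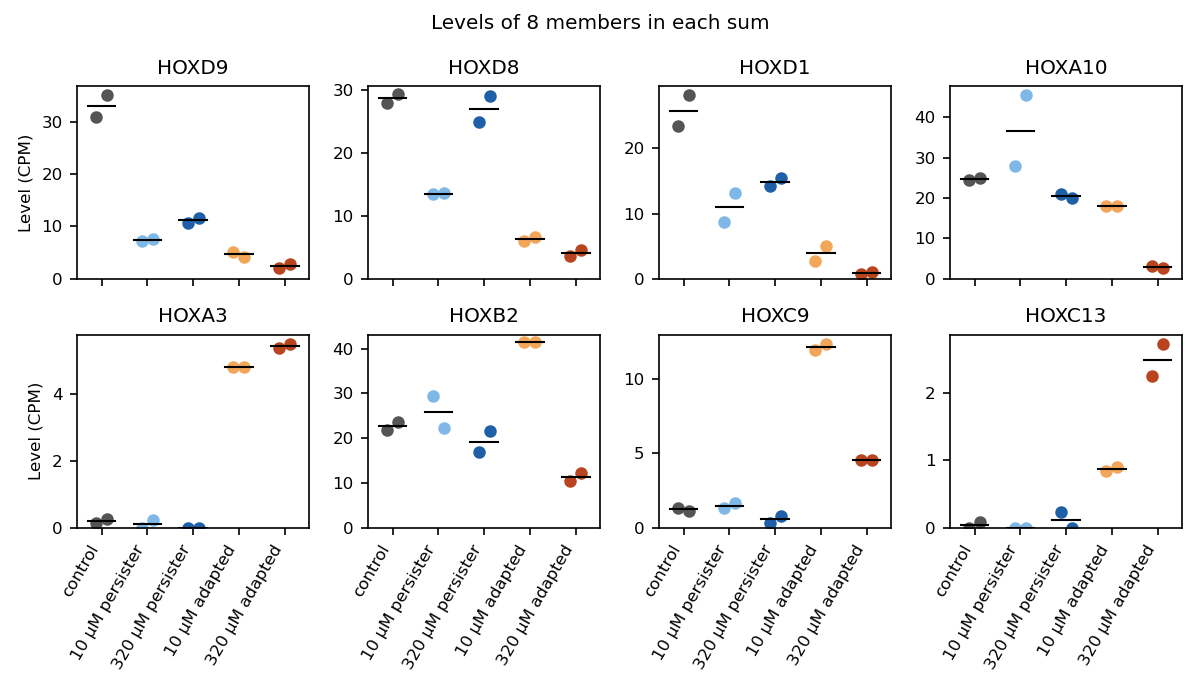
Level in CPM (vertical axis, from 0) of 8 members in each of the 10 sums; points are the 2 pools of a condition and the line is their mean. HOXD9, HOXD8 and HOXD1 are highest in control, HOXA3, HOXC9 and HOXC13 in adapted cells, and HOXA10 drops to 3.13 and 2.61 CPM in 320 µM adapted cells alone.

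All 8 HOXC genes were called higher than control in 10 µM adapted cells, where 33.7% of all genes were. Only HOXC4, HOXC6 and HOXC9 of them reached the filter's level in both control sums. The others passed the filter through other conditions, so a higher call where they are high was largely set by the filter. In 320 µM adapted cells 5 were called higher, HOXC5 lower, and HOXC4 and HOXC6 were not called. Of those 5 HOXC9 alone reached the filter's level in both control sums. Of all genes 37.6% were called higher and 36.9% lower there. HOXC9, a posterior gene of the trunk, had 1.33 and 1.14 CPM in control, 1.29 and 1.68 in 10 µM persister and 0.344 and 0.815 in 320 µM persister sums, against 11.9 and 12.4 in 10 µM adapted and 4.57 and 4.53 in 320 µM adapted sums. Adapted and control sums did not overlap. The log2 changes were 3.29 ± 0.18 at 10 µM (adjusted p 5.31e-16) and 1.87 ± 0.21 at 320 µM (adjusted p 3.75e-09). Its fall in 320 µM persister cells (-1.08 ± 0.42, adjusted p 0.032) was not called without the control sum of pool 1 (-0.97, adjusted p 0.106), without the 320 µM persister sum of pool 1 (-0.59, adjusted p 0.399) and under 4 other alternatives. HOXC10, active in the lower trunk and hind limb, had 4 and 2 UMIs in control and 3 and 2, 1 and 1, 85 and 77, and 22 and 14 UMIs in 10 µM persister, 320 µM persister, 10 µM adapted and 320 µM adapted sums. Its level in CPM was 5.55 and 4.96 in 10 µM adapted and 0.177 and 0.0848 in control sums, a log2 change of 5.24 ± 0.36 (adjusted p 1.67e-13), and the change at 320 µM was 2.98 ± 0.51 (adjusted p 7.01e-06). It was not called at 320 µM with thinned sums (2.55, adjusted p 0.0704). The call of a rise in 10 µM persister cells (2.18 ± 0.90, adjusted p 0.0397) rested on 5 UMIs and was lost without either 10 µM persister sum (adjusted p 0.261 without pool 1 and 0.0761 without pool 2), without the control sum of pool 2 (adjusted p 0.125), with thinned sums and with listed cells.

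HOXC8, a gene of the thoracic region, had 0.309 and 0.890 CPM in control, 1.80 and 1.20 and 0.115 and 0.349 in persister sums, and 9.33 and 8.57 and 1.94 and 0.871 in 10 µM and 320 µM adapted sums. The rise at 10 µM was 3.87 ± 0.28 (adjusted p 4.18e-11). That at 320 µM (1.18 ± 0.42, adjusted p 0.0144) overlapped control in its sums and was not called without the control sum of pool 1 (0.63, adjusted p 0.172), without the 320 µM adapted sum of pool 1 (0.51, adjusted p 0.386), with listed cells, with thinned sums and in a fit of the compared sums only. HOXC6, whose exons share bases with those of HOXC4, HOXC5 and HOXC9, had 4.16 and 3.69 CPM in control, 4.64 and 3.603 and 4.70 and 3.49 in persister sums, 10.2 and 10.7 in 10 µM adapted and 4.13 and 4.76 in 320 µM adapted sums. Of the 4 comparisons with control it was called in 10 µM adapted cells alone (1.41 ± 0.15, adjusted p 9.77e-10), while the change at 320 µM was 0.19 ± 0.17 (adjusted p 0.324). HOXC4 had 0.972 and 1.87 CPM in control, 1.03 and 1.92 and 1.38 and 1.40 in persister sums, and 2.55 and 3.22 and 1.82 and 2.21 in adapted sums. It was called at 10 µM (1.01 ± 0.27, adjusted p 0.00172), but not without the control sum of pool 1 (0.62, adjusted p 0.0652). HOXC5 had 12 and 12 UMIs in control, 1 and 0 and 4 and 1 in persister sums, 27 and 33 in 10 µM adapted and 1 and 5 in 320 µM adapted sums. It rose at 10 µM (1.89 ± 0.38, adjusted p 6.79e-05), and its lower call at 320 µM (-1.48 ± 0.64, adjusted p 0.0391) was lost without either control sum (adjusted p 0.0966 and 0.0835 without pools 1 and 2), without the 320 µM adapted sum of pool 1 (-0.82, adjusted p 0.317), without the 10 µM adapted sum of pool 2 (-1.48, adjusted p 0.0501) and with DESeq2. Exon sharing means that reads of HOXC4, HOXC5, HOXC6 and HOXC9 may have been split between them in counting.

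The last genes of the HOXC cluster were nearly silent in control. HOXC13, the most posterior, known from hair and nail, had 0 and 2 UMIs in control, 0 and 0 and 2 and 0 in persister sums, 13 and 14 in 10 µM adapted and 36 and 47 in 320 µM adapted sums. In CPM the adapted sums held 0.849 and 0.902 at 10 µM and 2.25 and 2.73 at 320 µM. As counts over both sums, the ratio to control was 20.2 (95% counting interval 5.08 to 175.5) at 10 µM and 57.8 (15.5 to 484.9) at 320 µM, with adjusted p 2.17e-05 and 7.6e-10. HOXC11 had 0 and 1 UMIs in control, 1 and 0 in each persister pair, 17 and 15 in 10 µM adapted and 5 and 4 in 320 µM adapted sums. The ratio to control was 47.95 (8.01 to 1952) at 10 µM (adjusted p 1.83e-06). At 320 µM it was 12.5 (1.74 to 549), and the call (adjusted p 0.00912) was not called without the control sum of pool 1 (adjusted p 0.0833), without the 320 µM adapted sum of pool 1 (adjusted p 0.0569) and with DESeq2.

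**Figure D4:**
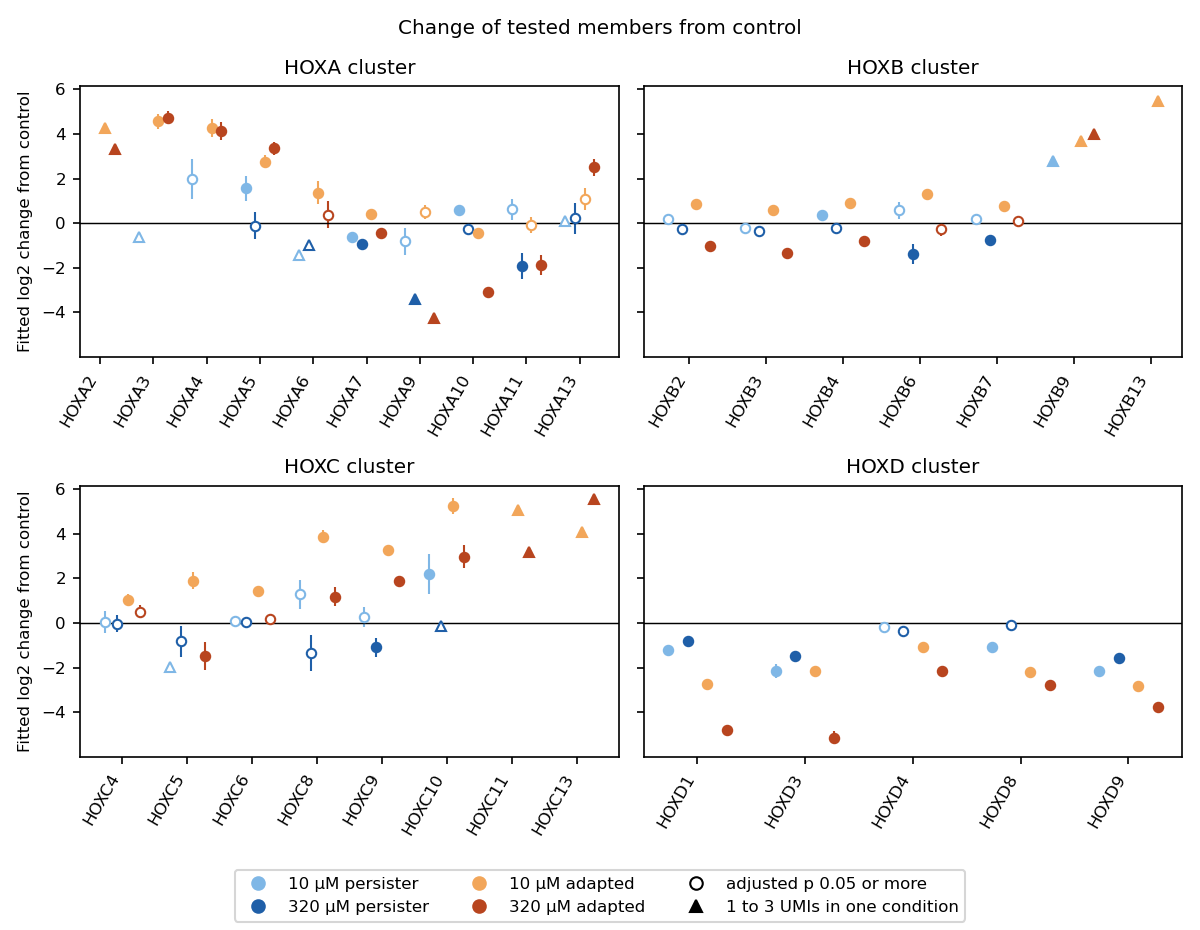
Fitted log2 change from control (vertical axis) of 30 tested members by cluster and position, for 10 µM and 320 µM persister and adapted cells. Filled points have an adjusted p under 0.05, bars are SE, triangles mark 1 to 3 UMIs in one condition (their height depends on the fit's prior count), and changes against 0 UMIs or between conditions that are both at 3 UMIs or fewer are not drawn; filled HOXD points all lie below 0.

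HOXB genes were higher in 10 µM adapted cells, where all 7 tested members were called, and the anterior ones were lower in 320 µM adapted cells. HOXB9 and HOXB13 did not reach the filter's level in both control sums, and 33.7% of all genes were called higher at 10 µM. HOXB2, an anterior gene of the hindbrain, had 21.9 and 23.7 CPM in control, 29.4 and 22.3 and 16.8 and 21.5 in 10 µM and 320 µM persister sums, 41.5 and 41.6 in 10 µM adapted and 10.4 and 12.2 in 320 µM adapted sums. Adapted sums of the 2 doses lay on opposite sides of control. The changes were 0.87 ± 0.09 at 10 µM (adjusted p 2.14e-09) and -1.005 ± 0.11 at 320 µM (adjusted p 2.78e-09). HOXB3 had 7.38 and 7.42 CPM in control, 6.19 and 6.73 and 6.30 and 5.35 in persister sums, 10.8 and 11.7 in 10 µM adapted and 2.63 and 3.19 in 320 µM adapted sums. HOXB4, known for expanding blood stem cells, had 9.11 and 10.1 CPM in control, 13.1 and 11.8 and 7.56 and 8.85 in persister sums, and 17.95 and 18.4 and 5.32 and 5.81 in adapted sums. Both were above control at 10 µM and below it at 320 µM in adapted cells: HOXB3 by 0.60 ± 0.12 and -1.34 ± 0.16 (adjusted p 7.64e-05 and 9.26e-09), HOXB4 by 0.92 ± 0.10 and -0.78 ± 0.13 (adjusted p 5.73e-09 and 2.69e-06). With thinned sums the rise of HOXB3 (adjusted p 0.161) and the fall of HOXB4 (adjusted p 0.0688) were not called, and the call of HOXB4 in 10 µM persister cells (0.37 ± 0.16, adjusted p 0.0483) was lost under 9 of 18 alternatives, among them without the control sum of pool 1 (0.30, adjusted p 0.161) and without either 10 µM persister sum (0.30 and 0.45, adjusted p 0.273 and 0.0897). Exons of HOXB3 share bases with those of HOXB4 and HOXB6.

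HOXB7, which has been linked to growth and spread of several cancers, had 19.3 and 19.2 CPM in control, 21.4 and 22.8 and 10.9 and 12.2 in 10 µM and 320 µM persister sums, 34.3 and 31.7 in 10 µM adapted and 20.2 and 21.0 in 320 µM adapted sums. It fell in 320 µM persister cells (-0.73 ± 0.11, adjusted p 1.28e-06) and rose in 10 µM adapted cells (0.78 ± 0.08, adjusted p 8.57e-10), and 320 µM adapted cells differed from control by 0.10 ± 0.08 (adjusted p 0.285). HOXB6 had 1.72 and 1.61 CPM in control, 2.32 and 2.64 and 0.802 and 0.466 in persister sums, and 3.59 and 4.77 and 1.82 and 0.987 in adapted sums. Its rise in 10 µM adapted cells was 1.32 ± 0.24 (adjusted p 1.45e-05), and its fall in 320 µM persister cells (-1.38 ± 0.44, adjusted p 0.00902) was not called without the 320 µM persister sum of pool 2 (-1.03, adjusted p 0.133) or with thinned sums. HOXB9, a posterior gene, had 2 and 1 UMIs in control, 3 and 1 and 0 and 2 in persister sums, 15 and 14 in 10 µM adapted and 15 and 24 in 320 µM adapted sums. The ratios to control were 14.5 (4.49 to 74.3) and 18.1 (5.75 to 91.5) in the adapted cells (adjusted p 2.12e-05 and 1.75e-06). In 10 µM persister cells the ratio of 7.66 (1.30 to 52.3) had an adjusted p of 0.0416. It was not called without either control sum (adjusted p 0.0534 and 0.122), without the 10 µM persister sum of pool 1 (adjusted p 0.471), or in 3 fits that left out an adapted sum (adjusted p 0.0507 to 0.0519).

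HOXB13, the most posterior HOXB gene and a marker of prostate and distal gut, was read in 10 µM adapted cells and almost nowhere else. The sums held 0 and 1 UMIs in control, 0 and 0 in both persister pairs, 17 and 25 in 10 µM adapted and 0 and 0 in 320 µM adapted cells. The ratio to control was 62.9 (95% counting interval 10.7 to 2544, adjusted p 4.9e-07), and the level was at least 15.1-fold higher than in 320 µM adapted cells, taking 3 UMIs over both sums as the floor (adjusted p 1.2e-06). The 42 UMIs came from 40 cells, 17 of 1831 in pool 1 (0.9285%) and 23 of 1584 in pool 2 (1.45%), with at most 2 UMIs in a cell. HOXB8, untested, had 1 and 0 UMIs in control, 6 and 4 in 10 µM adapted and 1 and 1 in 320 µM adapted sums, and none in persister sums.

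HOXA genes split by position. The anterior genes HOXA2, HOXA3, HOXA4 and HOXA5 were low in control and higher in both adapted populations. None of them, nor HOXA6, reached the filter's level in both control sums. A higher call where they are high was therefore largely set by the filter. Of all genes 33.7% were called higher at 10 µM and 37.6% at 320 µM. HOXA3, which patterns the neck and its glands, had 0.133 and 0.254 CPM in control, 0 and 0.240 in 10 µM persister, 0 and 0 in 320 µM persister, 4.83 and 4.83 in 10 µM adapted and 5.38 and 5.51 in 320 µM adapted sums. In UMIs, 9 in control and none in 320 µM persister cells stood against 149 and 181 in the adapted populations. The rises were 4.57 ± 0.32 (adjusted p 6.1e-13) and 4.74 ± 0.31 (adjusted p 6.47e-14). The lower call in 320 µM persister cells amounts to at least 1.12-fold with 3 UMIs as the floor and was not called without the control sum of pool 2 (adjusted p 0.119), without either 320 µM persister sum (adjusted p 0.147 and 0.145), with DESeq2, with listed cells and with thinned sums. HOXA4 had 0.0442 and 0.254 CPM in control, 0.516 and 0.721 and 0 and 0 in persister sums, 3.07 and 3.09 in 10 µM adapted and 2.88 and 2.79 in 320 µM adapted sums. It rose by 4.27 ± 0.41 and 4.14 ± 0.41 in adapted cells (adjusted p 2.75e-10 and 3.79e-10). HOXA5, a gene of lung and skeletal patterning, had 0.398 and 0.594 CPM in control, 1.03 and 1.92 and 0.458 and 0.466 in persister sums, and 2.81 and 4.06 and 5.64 and 4.76 in adapted sums. Adapted sums lay above every other sum, with changes of 2.77 ± 0.30 and 3.36 ± 0.28 (adjusted p 3.72e-09 and 5.08e-12). The rise in 10 µM persister cells (1.57 ± 0.56, adjusted p 0.0183) was not called without the control sum of pool 1 (1.32, adjusted p 0.0632), without the 10 µM persister sum of pool 2 (1.03, adjusted p 0.351) or with listed cells (0.99, adjusted p 0.219).

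HOXA2 had 0 and 2 UMIs in control, 1 and 0 in each persister pair, 16 and 15 in 10 µM adapted and 11 and 6 in 320 µM adapted sums. Ratios were 23.2 (5.91 to 200.3) and 11.8 (2.81 to 105.6), with adjusted p 9.85e-06 and 0.00103. HOXA6, in the middle, had 9 and 7 UMIs in control, 1 and 0 and 3 and 0 in persister sums, and 16 and 12 and 11 and 4 in adapted sums. Its rise in 10 µM adapted cells (1.37 ± 0.52, adjusted p 0.0223) was not called without the control sum of pool 2 (1.16, adjusted p 0.126), without the 10 µM adapted sum of pool 1 (1.13, adjusted p 0.167) or with DESeq2. HOXA7 had 10.3 and 9.92 CPM in control, 5.93 and 7.21 and 5.84 and 4.77 in persister sums, 13.8 and 13.6 in 10 µM adapted and 8.08 and 6.97 in 320 µM adapted sums. Persister sums were below control, by 0.62 ± 0.19 at 10 µM (adjusted p 0.00698, not called without the 10 µM persister sum of pool 1, adjusted p 0.117) and 0.93 ± 0.16 at 320 µM (adjusted p 8.84e-06). It rose in 10 µM adapted cells (0.44 ± 0.11, adjusted p 0.00089), and the lower call at 320 µM (-0.43 ± 0.12, adjusted p 0.00207) was lost without the 320 µM adapted sum of pool 2 (-0.32, adjusted p 0.061) and with listed cells.

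Of the posterior HOXA genes, those that mark the tube, uterus and cervix were lower in 320 µM adapted cells. HOXA10, needed for uterine identity, had 24.4 and 24.9 CPM in control, 27.8 and 45.6 in 10 µM persister, 21.1 and 20.02 in 320 µM persister and 18.1 and 18.1 in 10 µM adapted sums, and 3.13 and 2.61 in 320 µM adapted sums. The 320 µM adapted sums were the lowest by far, at a change of -3.10 ± 0.16 (adjusted p 1.36e-12), against -0.45 ± 0.12 at 10 µM (adjusted p 0.00249). The latter was not called with thinned sums (-0.33, adjusted p 0.214). The rise in 10 µM persister cells (0.58 ± 0.14, adjusted p 0.00129) rested on the sum of pool 2, without which it was 0.17 (adjusted p 0.367). HOXA9, a gene of the fallopian tube, had 25 and 36 UMIs in control, 3 and 3 in 10 µM persister, 2 and 0 in 320 µM persister, 29 and 29 in 10 µM adapted and 1 and 1 in 320 µM adapted sums. Both 320 µM conditions lay below control, by ratios of 11.4 (3.03 to 96.5, adjusted p 0.000144) in persister and 21.9 (5.81 to 185) in adapted cells (adjusted p 6.04e-07), and 10 µM adapted cells differed from control by 0.51 ± 0.30 (adjusted p 0.136). HOXA9 and HOXA10 share exon bases with the locus AC004080.3, so part of their reads may be common. HOXA11 had 1.11 and 1.14 CPM in control, 1.29 and 2.16 and 0.229 and 0.349 in persister sums, and 0.849 and 1.29 and 0.188 and 0.406 in adapted sums. It fell by 1.87 ± 0.46 in 320 µM adapted cells (adjusted p 0.000619) and by 1.93 ± 0.58 in 320 µM persister cells (adjusted p 0.00615), the latter not without the 320 µM persister sum of pool 1 (-1.66, adjusted p 0.079). HOXA13, the last of the cluster and a gene of the vagina and limb, went against its neighbours: 8 and 8 UMIs in control, 3 and 0 and 4 and 3 in persister sums, 14 and 9 in 10 µM adapted and 31 and 36 in 320 µM adapted sums. It rose in 320 µM adapted cells by 2.51 ± 0.39 (adjusted p 1.5e-06). HOXA13 did not reach the filter's level in both control sums, so a higher call where it is high was partly set by the filter.

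Adapted cells were then compared with persister cells of the same dose, a contrast without the control sums, which entered only the fit's estimate of the spread. At 10 µM 19 of 31 members were higher in adapted cells and 5 lower, where 31.4% of all genes were higher and 29.3% lower. Among the 19 members that reached the filter's level in both persister sums, 10 were higher and 5 lower. At 320 µM 14 were higher and 9 lower, against 34.1% and 32.6%. Of the 13 members that reached the level in those persister sums 2 were higher and 9 lower. The other 12 higher calls were among the 18 that did not, which had to be high in adapted or other cells to be tested. The 5 that were lower at 10 µM, HOXA10, HOXD1, HOXD4, HOXD8 and HOXD9, were called lower at 320 µM too. HOXD8 changed by -1.11 ± 0.17 and -2.71 ± 0.13 (adjusted p 2.71e-06 and 3.86e-17). At 10 µM HOXD4 (-0.91 ± 0.29, adjusted p 0.00902) was not called without the 10 µM persister sum of pool 1 (-0.73, adjusted p 0.132), nor HOXD9 (-0.66 ± 0.23, adjusted p 0.0126) without the 10 µM persister sum of pool 2 (-0.62, adjusted p 0.102) or the 10 µM adapted sum of pool 2 (-0.54, adjusted p 0.0688). HOXA3 was at least 31.5-fold higher in adapted than in persister cells at 320 µM (181 UMIs against 0, adjusted p 1.33e-11) and HOXA4 at least 16.35-fold (94 against 0, adjusted p 2.02e-08). HOXC9 was higher by 3.02 ± 0.29 at 10 µM and 2.96 ± 0.34 at 320 µM (adjusted p 3.79e-10 and 6.55e-09). HOXD3, at 12 UMIs in persister and 46 in adapted cells of 10 µM, had adjusted p 1 there, and it fell by 3.65 ± 0.45 at 320 µM (adjusted p 3.37e-08).

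The doses were compared within persister and within adapted cells. Among persister cells 2 members were higher at 320 µM than at 10 µM and 10 lower, beside 25.3% and 24.4% of all genes. Among the 19 that reached the filter's level at 10 µM these counts were 2 and 9. HOXD8 was the clearest of the 2, higher by 0.99 ± 0.15 (adjusted p 1.43e-06), and HOXD9 (0.58 ± 0.21, adjusted p 0.0211) was not called without the 10 µM persister sum of either pool (adjusted p 0.112 and 0.0745), without the 320 µM persister sum of pool 2 (adjusted p 0.0832) and under 3 further alternatives. HOXB7 (-0.94 ± 0.14, adjusted p 1.76e-06), HOXA10 (-0.85 ± 0.16, adjusted p 0.000149) and HOXB6 (-1.95 ± 0.55, adjusted p 0.00382) were lower at 320 µM; without the 10 µM persister sum of pool 2 the change of HOXA10 was -0.43. Among adapted cells 3 members were higher at 320 µM and 21 lower, beside 33.4% and 32.4% of all genes. Among the 30 that reached the level at 10 µM they were 2 and 21. HOXC13 (1.503 ± 0.35, adjusted p 0.000491) and HOXA13 (1.42 ± 0.37, adjusted p 0.00133) were 2 of the 3 and are each the most posterior gene of their cluster. HOXB13, the most posterior HOXB gene, went the other way, from 42 UMIs at 10 µM to 0 at 320 µM, and HOXD13 was not tested. HOXA13 did not reach the filter's level in both 10 µM adapted sums, so its higher call was partly set by the filter. The third, HOXA5 (0.59 ± 0.20, adjusted p 0.0126), was not called without the 10 µM adapted sum of pool 1 (0.36, adjusted p 0.205), without the 320 µM adapted sum of pool 1 (0.47, adjusted p 0.12) or under 3 further alternatives. Lower at 320 µM were HOXB2 (-1.87 ± 0.10, adjusted p 8.41e-15), HOXB3 (-1.94 ± 0.15, adjusted p 5.4e-12), HOXA10 (-2.66 ± 0.18, adjusted p 1.26e-10) and HOXC8 (-2.68 ± 0.26, adjusted p 6.69e-09), among others. HOXD8 and HOXD9 were also lower (-0.60 ± 0.16 and -0.94 ± 0.20, adjusted p 0.00152 and 0.000123), but in the listed cells alone the differences were -0.24 and -0.45 (adjusted p 0.376 and 0.179).

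Whether the dose difference of adapted cells differs from that of persister cells was tested as an interaction. It was called for 12 members, 2 with a more positive dose difference in adapted cells and 10 with a more negative one, beside 23.4% and 25.9% of all genes. HOXB2 (-1.45 ± 0.18, adjusted p 1.14e-07), HOXD8 (-1.59 ± 0.22, adjusted p 3.71e-07), HOXB3 (-1.79 ± 0.28, adjusted p 3.36e-06) and HOXA10 (-1.81 ± 0.25, adjusted p 4.42e-06) had the lowest p. For HOXC9, with dose differences of -1.36 ± 0.57 in persister (adjusted p 0.0541) and -1.42 ± 0.15 in adapted cells, the interaction was -0.06 ± 0.75 (adjusted p 0.961).

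The 10 µM adapted cells were also divided by clustering. Clustered with HOX genes left out, they fell into 5 clusters, of which 2 had EMX2, a factor of the Müllerian tract from the serous lineage list, above 20 CPM (863 and 716 cells in the 2 pools) and 3 had it below (968 and 868 cells). The line at 20 CPM was drawn after the data were seen, and the values below are a description with no test. EMX2 stood at 64.0 and 65.7 CPM in the first class and 1.86 and 1.83 CPM in the second. PAX8 was at 131.7 and 133.7 against 30.9 and 34.9, and COL1A1, a fibroblast collagen, at 6.55 and 8.12 against 196.6 and 188.2. EPCAM and SOX17 leaned as PAX8 did, and COL3A1, PDGFRB and DCN as COL1A1 did. Other markers of these lists went the other way. The fibroblast marker THY1 had 140.3 and 129.8 against 117.45 and 114.7 CPM. The epithelial marker KRT18 had 1301 and 1303 against 2110 and 1954 CPM. Both classes hold a cluster of cycling cells, with the proliferation marker MKI67 at 266.9 and 255.8 CPM. Of these clusters 0% and 14.2% of cells were listed cells, against 83.9%, 94.7% and 63.6% in the other clusters. Of the 31 members with at least 20 UMIs in 10 µM adapted cells, 7 were higher in both pools in the EMX2-high class and 19 lower. Of all 12626 genes with that many UMIs 37.7% were higher and 38% lower by the same rule. The classes were made from the expression of these same cells, so such shares follow in part from how the classes were made. All 42 HOXB13 UMIs, 17 and 25, were in the EMX2-high class, against 0 in the other.

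HOXA3 had 9.29 and 9.01 CPM in the EMX2-low class and 1.02 and 1.24 in the EMX2-high class. HOXA4 had 5.86 and 5.49 against 0.677 and 1.01 CPM, and HOXC13 had 1.71 and 1.69 against 0.113 and 0.226 CPM. Both classes nonetheless lay on the same side of control for several genes. HOXC9 had 18.7 and 19.4 CPM in the EMX2-low and 5.87 and 6.09 in the EMX2-high class, all above the 1.33 and 1.14 of control. HOXB2 leaned the other way, with 48.3 and 48.9 CPM in the EMX2-high and 29.7 and 29.7 in the EMX2-low class, both above control. HOXD9, at 4.97 and 3.496 against 5.001 and 4.93 CPM, was far below control in both classes. HOXD1 was 3.84 and 7.56 CPM in the EMX2-high and 1.00 and 1.69 in the EMX2-low class. HOXA10, lower in 320 µM adapted cells, was at 14.8 and 15.6 against 20.9 and 20.1 CPM. These levels divide by all UMIs of the class.

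**Figure D5:**
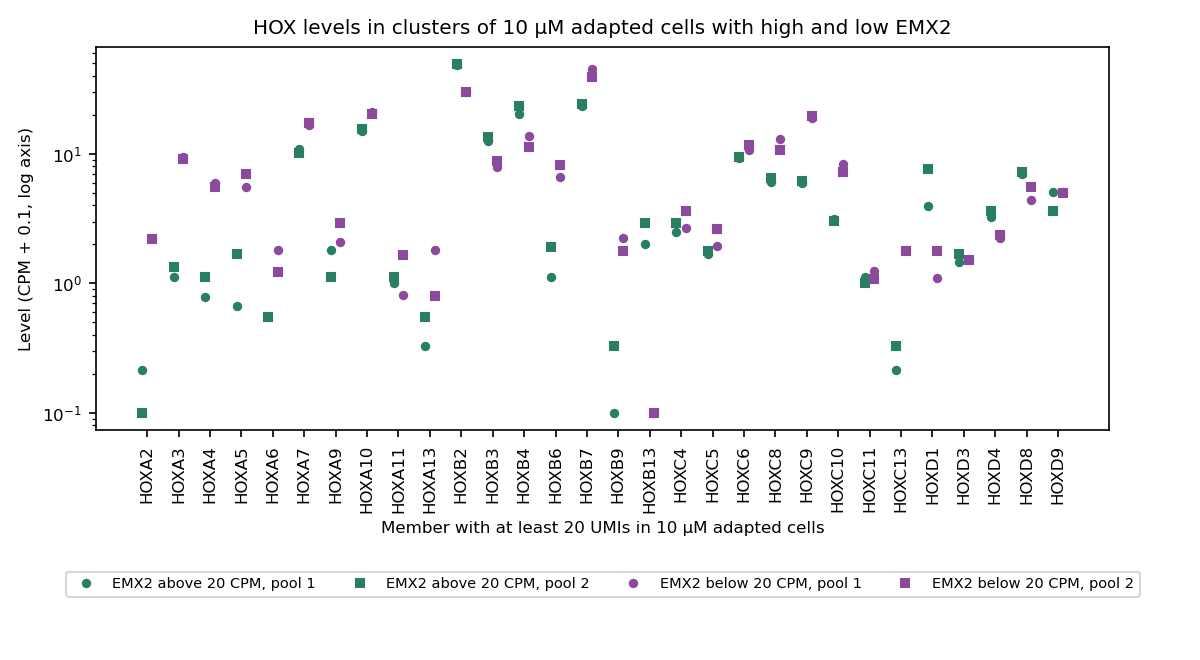
Level of 30 members with at least 20 UMIs in 10 µM adapted cells (horizontal axis) in cells of clusters with EMX2 above (green) and below (purple) 20 CPM, as CPM + 0.1 on a log axis; circles are pool 1 and squares pool 2. HOXB13 is at 0 in the EMX2-low class, and HOXA3 stands at 9.29 and 9.01 CPM there against 1.02 and 1.24 CPM in the other.

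A split of every condition by its own median of epithelial and serous marker UMIs, after thinning each cell to 3000 UMIs, was also made. In 10 µM adapted cells the HOXA sum was 50.1 and 53.1 CPM in cells with few marker UMIs and 45.4 and 44.5 CPM in cells with many. There the HOXC sum was 43.8 and 44.0 CPM in cells with few and 39.95 and 41.2 CPM in cells with many. Split by the serous list alone, an alternative added after seeing the data, the same cells differed more. The HOXA sum was 55.8 and 53.5 CPM in cells with no serous marker UMI and 33.4 and 41.0 CPM in cells with any. The HOXC sum was 48.4 and 45.9 against 30.4 and 37.3 CPM. In 320 µM adapted cells the split by both lists gave HOXA sums of 25.9 and 21.3 CPM in cells with few and 26.8 and 27.8 CPM in cells with many. In control the HOXD sum was 99.1 and 113.4 CPM in cells with few and 93.4 and 104.3 CPM in cells with many. The HOXD sum of 320 µM adapted cells was 6.78 and 8.65 CPM with few and 7.64 and 10.2 CPM with many, below control on both sides of the split.

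Shares of single cells with a UMI were also taken. After thinning to 3000 UMIs, HOXD9 was seen in 9.08% (95% exact binomial interval 7.96 to 10.3) and 11.1% (9.79 to 12.5) of control cells in the 2 pools. It was seen in 2.56% and 3.36% of 10 µM persister, 2.06% and 2.56% of 320 µM persister, 1.39% and 1.15% of 10 µM adapted and 0.297% and 1.04% of 320 µM adapted cells. The shares in control before thinning were 23.2% and 29.98%. HOXC9 was seen in 4.29% and 3.65% of 10 µM adapted cells against 0.454% and 0.328% of control cells after thinning, and 9.18% and 11.3% against 1.19% and 1.25% before. HOXB13 was seen in 0 of 2424 and 0 of 2137 thinned control cells, which allows up to 0.124% and 0.140% of cells with a UMI by the limit of 3 counts, or 0.152% and 0.1725% by the exact binomial interval. No cell type without HOX expression is part of the series, so the share that free RNA gives was not measured. Intervals and floors cover counting error only.

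Genes that work with or on HOX genes were followed by lists. Of all genes 27.3% were higher and 29.3% lower in 10 µM persister and 26.3% and 28.3% in 320 µM persister cells. Adapted cells had 33.7% and 33.4% at 10 µM and 37.6% and 36.9% at 320 µM. Adapted against persister cells the shares were 31.4% and 29.3%, and 34.1% and 32.6%. Between doses they were 25.3% and 24.4% in persister and 33.4% and 32.4% in adapted cells, with 23.4% and 25.9% in the interaction. List counts were not tested against these shares. Of 9 cofactor genes of the PBX, MEIS and PKNOX families, 1 was higher and 3 lower than control in 10 µM persister, 1 and 3 in 320 µM persister, 5 and 2 in 10 µM adapted and 2 and 7 in 320 µM adapted cells. MEIS1 fell in 320 µM adapted cells, from 31.9 ± 1.66 to 14.1 ± 1.21 CPM (SD, n = 2; log2 change -1.18, adjusted p 2e-13). PBX3 rose in both adapted populations, from 2.08 ± 0.0613 to 8.27 ± 0.520 and 11.1 ± 1.07 CPM (adjusted p 9.5e-11 and 1.9e-13), and MEIS3 from 0.196 ± 0.0976 to 6.61 ± 0.214 and 2.35 ± 0.0448 CPM (adjusted p 5.4e-15 and 9.9e-10). The MEIS3 mean in control was below the filter's 0.628 CPM, so a higher call where it is high was partly set by the filter. Adapted against persister cells, the list had 7 higher and 1 lower at 10 µM and 2 and 4 at 320 µM. The dose comparison gave 4 and 0 in persister and 1 and 6 in adapted cells, and the interaction 0 and 6.

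Polycomb genes, 23 in all, moved both ways: 4 higher and 7 lower, 8 and 9, 7 and 12, and 7 and 9 in the 4 comparisons with control, 9 and 8 and 6 and 10 between adapted and persister cells at 10 µM and 320 µM, 6 and 5 between doses in both states, and 4 and 7 in the interaction. RBBP4, a histone-binding subunit, was at 117.3 ± 4.23 CPM in control and 60.04 ± 2.28 to 75.2 ± 0.907 CPM in the treated conditions, lower in all 4 comparisons. BMI1, a subunit of the RING1 complex, was lowest in 10 µM adapted cells (5.64 ± 0.143 against 19.5 ± 0.864 CPM in control, log2 change -1.79, adjusted p 1.1e-14). MTF2, a DNA-binding partner of the EZH2 complex, fell to 41.0 ± 3.47 from 105.9 ± 2.85 CPM in 320 µM adapted cells (-1.37, adjusted p 4.9e-18), and PHF19, a related partner, fell to 30.8 ± 2.27 from 57.3 ± 2.20 CPM (-0.89, adjusted p 2.7e-12). Of 13 Trithorax and H3K27 demethylase genes, 1 was higher and 3 lower, 4 and 2, 1 and 7, and 1 and 8 against control, 1 and 3 and 3 and 5 between adapted and persister cells, 4 and 1 and 3 and 4 between doses, and 1 and 3 in the interaction. KDM6B, which removes the Polycomb mark, was the member called higher in both adapted populations, from 17.6 ± 0.461 to 30.7 ± 3.11 and 46.1 ± 2.47 CPM (0.80 and 1.39, adjusted p 1.2e-09 and 9.3e-16). KMT2C (-0.92), RBBP5 (-0.76) and DPY30 (-0.45), parts of H3K4 methyltransferases, were lower in 320 µM adapted cells (adjusted p 2.4e-14, 7.8e-09 and 3.6e-09).

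In the retinoic acid pathway 17 of 18 listed genes were tested, with 5 higher and 2 lower, 3 and 9, 8 and 3, and 4 and 10 against control, 5 and 3 and 4 and 7 between adapted and persister cells, 2 and 9 and 3 and 10 between doses, and 5 and 8 in the interaction. ALDH1A2, which makes retinoic acid, was nearly lost in adapted cells, at 31.3 ± 0.825 CPM in control, 11.4 ± 2.15 and 23.6 ± 0.0142 in persister and 1.20 ± 0.310 and 0.912 ± 0.304 in adapted cells (log2 changes of -4.69 and -5.10 in adapted cells, adjusted p 5.4e-21 and 6.4e-22). DHRS3, which lowers retinaldehyde, fell in both adapted populations and in 320 µM persister cells (213.7 ± 7.67 in control against 64.5 ± 2.52, 65.7 ± 0.615 and 88.8 ± 6.21 CPM). STRA6, the uptake receptor of retinol, had opposite signs at the 2 adapted doses, 25.65 ± 0.556 CPM at 10 µM and 1.27 ± 0.0175 at 320 µM against 4.16 ± 0.122 in control (adjusted p 2.3e-18 and 1.3e-08). RXRA, the common receptor partner, rose in all 4 comparisons, to 33.85 ± 3.77 from 7.47 ± 0.128 CPM in 320 µM adapted cells (2.18, adjusted p 4.5e-18). Of the 3 CDX genes, which set posterior HOX borders in the embryo, CDX2 alone was tested. It was at 0.237 ± 0.0849 CPM in control, 0.120 ± 0.170 and 0 in persister and 1.10 ± 0.377 and 0.811 ± 0.0844 in adapted cells, called higher in both adapted populations (adjusted p 0.000375 and 0.0042) and lower in 320 µM persister cells, where it had no UMI. Only the adapted means were above the filter's 0.628 CPM, so the higher calls of CDX2 were largely set by the filter. None of 5 named HOX antisense and long noncoding RNAs was in the table, and they were not analysed here.

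Genes next to the clusters were called in both directions. Of 18 flanking genes 12 were tested, with 4 higher and 5 lower, 6 and 5, 4 and 6, and 6 and 5 against control, 4 and 6 and 4 and 5 between adapted and persister cells, 5 and 3 and 4 and 3 between doses, and 4 and 5 in the interaction. SKAP2, beside the anterior end of HOXA, rose in both adapted populations, from 4.36 ± 0.587 to 15.5 ± 0.464 and 34.1 ± 2.76 CPM (1.83 and 2.97, adjusted p 2.5e-13 and 7.2e-20), where HOXA2 to HOXA5 were higher too. CALCOCO2, near HOXB, rose from 30.1 ± 2.97 to 64.6 ± 2.93 and 95.6 ± 0.259 CPM (1.10 and 1.67, adjusted p 8.3e-15 and 9.2e-20), although HOXB2 to HOXB4 fell at 320 µM. CBX5, near HOXC, fell from 203.0 ± 3.04 to 157.3 ± 8.69 and 165.9 ± 1.33 CPM (-0.37 and -0.29, adjusted p 1.9e-07 and 5.8e-06), beside 8 HOXC genes called higher at 10 µM and 5 higher and 1 lower at 320 µM. ATP5MC3, near HOXD, fell from 1121 ± 10.2 to 643.8 ± 4.35 and 603.7 ± 6.31 CPM (-0.80 and -0.89, adjusted p 3.9e-17 and 1.1e-18), where the tested HOXD genes were lower too.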

How the data were processed

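Per the labels, droplet 3′ single-cell RNA-seq was made of 2 hashtagged pools of Kuramochi cells; the authors deposited 1 table of raw UMI counts per gene and cell (19893 genes, 13800 cells). The submitters' processing notes list Cell Ranger 3.1, Seurat and GRCh38 without saying what each did. Filters and hashtag settings: not given in the sources used here. No doublet caller was run.

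Counts were summed per condition and pool (10 sums, 3532281 to 23189583 UMIs) and fitted with edgeR 4.0.16 in R 4.3.3: filterByExpr, TMM scaling, robust quasi-likelihood test, Benjamini-Hochberg adjustment over 13330 genes, threshold 0.05, 5 residual degrees of freedom. The SE is the log2 change divided by the root of F. The script was tested on simulated data. CPM are TMM-scaled, except in cell subsets, where they divide by all UMIs. Floors are 3 UMIs over a pair of sums; ratios carry exact 95% counting intervals. Cells were thinned to 3000 UMIs for shares and marker splits; clusters came from scanpy 1.11.5 in Python 3.11.15. Alternatives were DESeq2 1.42.0, other scaling and filters, a pool block, fits of the compared sums only, listed cells, thinned sums and leaving out each sum. Same-numbered sums share a pool, and their deviations correlated at 0.235 to 0.417 over 10 condition pairs and 6282 genes.

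The members, lists and tests were chosen with earlier results of these data known. Members with at least 10 CPM in a condition mean or called in any comparison are given in every sum; of each other list, up to 4 genes with the lowest p against control and at least 5 CPM are named, and CDX2 because it alone of its list was tested. The 4 promoter windows, the 8 plotted members and the EMX2 line were chosen after values were seen. The values of 1 member and of 1 cofactor that this rule names are not reported here; both stay in the counts and sums.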

Additional observations from a re-analysis of the deposited data

Results flagged for a closer look

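In 12 members the difference between doses was not the same in adapted as in persister cells, by an interaction term in edgeR's quasi-likelihood test with Benjamini-Hochberg adjustment. The interaction was negative (a more negative dose difference in adapted cells) for HOXA10 (-1.809 on the log2 scale), HOXB2 (-1.446), HOXB3 (-1.794), HOXB4 (-1.105) and HOXC6 (-1.225). It was negative too for HOXD1 (-2.513), HOXD3 (-3.645), HOXD8 (-1.593) and HOXD9 (-1.523). For HOXC5 it was -4.521, with 1 UMI in 10 µM persister cells. It was positive for HOXA5 (2.264) and for HOXA4 (5.976), which had no UMI in 320 µM persister cells, so that the fitted sizes for HOXA4 and HOXC5 depend on the prior count. Calls were lost for HOXA5 (1.73, adjusted p 0.168) and HOXC5 (-3.53, adjusted p 0.0645) without the 10 µM persister sum of pool 2, and for HOXC5 without the 320 µM persister sum of pool 1 (-3.28, adjusted p 0.285). With thinned sums they were lost for HOXA4 (4.25, adjusted p 0.0581), HOXA5 (2.23, adjusted p 0.0882), HOXC6 (-0.39, adjusted p 0.592), HOXD3 (-2.16, adjusted p 0.0901) and HOXD9 (-0.98, adjusted p 0.105).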

How the results depend on the processing

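Under 18 alternatives, 112 of the 169 calls kept call and direction in every alternative that tested them. The counts of members below stand without the share of all genes called in the same fit. They do not show whether HOX members changed more than other genes. With the replicate block (pool as a term) no call was lost and 5 were gained; members lower in 320 µM persister cells then numbered 12. In 10 µM persister cells the count of higher members was 3 in a fit of the compared sums only, 1 with listed cells and 2 to 6 with 1 sum left out. Thinned sums, where 20 members could be tested, gave 6 lower in 320 µM persister, 13 higher in 10 µM adapted, 4 higher in 320 µM adapted and 5 higher between adapted and persister cells at 320 µM. They gave 0 higher and 12 lower between adapted doses and 0 and 6 for the interaction. Between persister doses the count of higher members was 1 with DESeq2, 1 with listed cells and 1 to 2 with 1 sum left out. The count of lower ones was 5 with compared sums only and 6 to 10 with 1 sum left out. Positive interactions numbered 1 to 3 with 1 sum left out. The change of HOXA5 between adapted doses turned to -0.050 with thinned sums, and that of HOXA13 between adapted and persister cells at 10 µM ranged from -0.051 to 6.46 with 1 sum left out, the latter fitted against 0 UMIs and so set by the prior count. The cause was not tested. Depth limits most the 10 µM persister sums, where the floor of 3 UMIs is highest.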
